A study of Mus musculus with 614 samples.

Results

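The 50 genes described here encode the machinery that carries a new protein into the endoplasmic reticulum (ER), folds it there, and answers when folding fails. They were taken as a given list by gene function, not by their levels, and all 50 were found by symbol among the 43280 gene symbols of the deposited single-cell table. By role they comprise 5 genes of the translocon, 4 of the translocon-associated protein (TRAP) complex, 5 of the signal peptidase, 6 of the signal recognition particle and its receptor, 7 of the oligosaccharyl transferase, 14 ER chaperones and folding enzymes, 3 transcription factors of the unfolded protein response, and 6 genes of ER-associated degradation. The question was in which sorted population the secretory genes of plasmacytoid dendritic cells (pDC) are first found at a high level.

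Messenger RNA was measured in single cells from untreated adult C57BL/6J mice aged 7 to 10 weeks, captured on a microfluidic chip after sorting, with cDNA primed from the poly(A) tail. All gates were depleted of lineage-positive cells, and all but the 16 blood cells came from bone marrow. The upstream progenitors were 65 lymphoid-primed multipotent progenitors (LMPP; Sca-1+, c-Kit+, CD34+, intermediate CD16/32, CD127-), 51 granulocyte-macrophage progenitors (GMP; c-Kit+, CD34+, high CD16/32, Sca-1-), 66 common monocyte progenitors (cMoP; CD115+, high Ly6C, c-Kit+, CD11b-, Flt3-) and 48 common lymphoid progenitors (CLP; CD127+, Flt3+, CD34+, low c-Kit and Sca-1, Thy-1-). A gate of 30 cells labelled pre-pro-B was B220+, CD43+, CD93+, CXCR4+, IL7R+ and Flt3+ with low CD117 and CD24. The 58 common dendritic progenitors (CDP) were Flt3+ with intermediate c-Kit and negative for CD115, IL7R, CD11c and MHCII. The precursors of dendritic cells (pre-DC) were CD11c+, Flt3+, MHCII-, B220- and CD172α-, and in marrow they were divided by 2 further proteins into 70 cells negative for both (SiglecH-Ly6C-), 68 with Ly6C alone (SiglecH-Ly6C+), 45 with both (SiglecH+Ly6C+) and 70 with SiglecH alone (SiglecH+Ly6C-); the blood pre-DC were not divided. The 27 pDC were B220+ and SiglecH+.

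No label names an animal or a pool, so each gate counts as 1 sample. Its cells are not replicates, no test between gates was possible, and every SD below is over cells. Levels are TPM, transcript abundances corrected for transcript length and scaled to the same total in each cell, and a mean level is the mean over cells of log2(TPM + 1). A gene is counted as higher or lower in 1 gate than in another where these means differ by 1 or more, and the share of all 12660 genes kept (those reaching 1 TPM in 20% or more of any gate's cells) that do so is given beside the first such count. Read depth is unknown. In its place the genes reaching 1 TPM per cell were counted, with gate medians from 3280 in CLP and 3292 in LMPP to 5792 in GMP and 6671 in cMoP.

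The library numbers in the labels form 9 runs. GMP, CLP and pre-pro-B cells share a run, CDP share one with 24 of the 27 pDC, and the SiglecH+Ly6C- pre-DC are divided between the run of the SiglecH+Ly6C+ cells (51 of 70) and that of the SiglecH-Ly6C- cells (19 of 70). In the first of these runs Mpo, a granule gene with a median of 14138 TPM in GMP, was at 1 TPM or more in 100% of CLP and of pre-pro-B cells, at medians of 24.7 and 13.2 TPM, and its part in low values of that run was not tested. Shares of cells are therefore given at 100 TPM or more. Of the pDC markers 13 of 16 reached 1 TPM in 50% or more of the pDC, with a summed median of 1.61% of TPM. Their summed median was higher in the gate labelled pre-pro-B (2.73%, Siglech at 100 TPM or more in 100% of cells), although gene by gene 6 of the 16 were higher in pDC by 1 or more and 4 lower. In that gate 1 of 9 B lineage markers reached 50% of the cells and Pax5 was listed at 0 in every cell. Markers of plasma cells, another secretory cell of marrow, summed to a median of 0.00607% of TPM or less in every gate, with 4 to 9 of the 11 measured listed at 0 in all cells of a gate. Granule genes summed to 3.28% in GMP and 1.86% in cMoP, and to 0.0280% or less elsewhere.

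Proteins bound for secretion are recognised by the signal recognition particle as they leave the ribosome, threaded through the SEC61 translocon with the help of the TRAP complex, cut by the signal peptidase and glycosylated by the oligosaccharyl transferase. Chaperones such as BiP (Hspa5) and GRP94 (Hsp90b1) fold them, and proteins that cannot be folded are returned to the cytosol for degradation. When unfolded protein accumulates, 3 sensors in the ER membrane switch on the unfolded protein response through ATF6, spliced XBP1 and ATF4, which raise transcription of chaperone and degradation genes. pDC are known for large amounts of secreted type I interferon and for an extensive rough ER, and XBP1 is known to be needed for their development.

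The response acts through short promoter elements, and the promoters of the members the results turn on are shown for that reason. In the RefSeq promoter windows (GRCm38.p6, 250 bases before to 50 after a start), 41 of the 50 genes had an entry, and both strands were searched. The ER stress response element, ERSE, here CCAAT and CCACG with 9 bases between them, was found in 8 of 41 members, against 0.137% of 27025 genes. ERSE-II, here ATTGG and CCACG with 1 base between them, was found in 2 of 41, Herpud1 and Dnajb11, against 0.0444%. The C/EBP-ATF element bound by ATF4 and CHOP, TGATGNAA, was found in 1 of 41, Herpud1, against 4.51%. The letters TGACGTGG, the core of the unfolded protein response element, were in 0 of 41 windows, against 0.714%. ERSE and ERSE-II share the letters CCACG, and no member held both. A match is a description of letters only. The 250 bases upstream of Herpud1 at chr8:94386179-94386428, plus strand, overlap no exon in GENCODE M21. Capitals mark the C/EBP-ATF element, which lies on the opposite strand, and then ERSE-II:
Herpud1: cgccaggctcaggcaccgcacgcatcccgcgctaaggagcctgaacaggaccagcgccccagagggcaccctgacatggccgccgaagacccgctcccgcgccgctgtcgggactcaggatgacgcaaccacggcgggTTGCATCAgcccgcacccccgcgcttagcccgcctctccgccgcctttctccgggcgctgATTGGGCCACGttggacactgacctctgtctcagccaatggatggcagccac
The ERSE matches of 6 chaperone genes follow, read 5′ to 3′ on the strand of the gene, with the fixed letters in capitals and the spacer in lower case. Those of Calr and the second of Hsp90b1 lie on the opposite strand.
Hspa5: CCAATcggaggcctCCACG
Hsp90b1: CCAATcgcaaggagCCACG
Hsp90b1: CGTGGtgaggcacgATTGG
Calr: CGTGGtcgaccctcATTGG
Canx: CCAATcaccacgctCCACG
Pdia6: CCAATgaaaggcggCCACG
Dnajc3: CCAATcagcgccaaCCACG
They lie at chr2:34772025-34772043 (Hspa5), chr10:86705638-86705656 and chr10:86705533-86705551 (Hsp90b1), chr8:84847075-84847093 (Calr), chr11:50325800-50325818 (Canx), chr12:17266491-17266509 (Pdia6) and chr14:118937827-118937845 (Dnajc3). Creld2 and Syvn1 held the remaining matches. Xbp1 held none of the 4 patterns in its window.

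As a set, the 50 genes were highest in the myeloid progenitors and not in pDC. Their summed level took a median of 1.51% of all TPM per cell in GMP (0.704% to 1.98% over cells) and 1.41% in cMoP (0.332% to 2.49%). Below these came SiglecH+Ly6C- pre-DC at 1.14% (0.478% to 2.38%), pre-pro-B cells at 1.07% (0.720% to 1.85%) and pDC at 1.06% (0.0270% to 2.33%). The remaining gates had medians of 0.883% in SiglecH-Ly6C- pre-DC, 0.824% in CLP, 0.815% in SiglecH-Ly6C+ cells, 0.813% in SiglecH+Ly6C+ cells, 0.798% in CDP, 0.674% in LMPP and 0.600% in blood pre-DC. The ranges over cells of all 12 gates overlapped, and the lowest value of a marrow cell, 0.0270%, was in a pDC.

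The mean log level of the 50 genes per cell ordered the gates in the same way at the top and differently for pDC. It was 6.76 ± 0.93 in GMP (SD, n = 51 cells) and 6.16 ± 1.09 in cMoP (n = 66), then 5.08 ± 0.85 in pre-pro-B cells (n = 30) and 4.74 ± 0.73 in SiglecH+Ly6C- pre-DC (n = 70). pDC stood at 3.89 ± 1.06 (n = 27), beside 4.33 ± 0.87 in CLP, 4.32 ± 0.82 in CDP and 3.93 to 4.0 in the other 3 marrow pre-DC gates. A median of 48 members was at 1 TPM or more in a GMP cell, 36 in a SiglecH+Ly6C- pre-DC and 30 in a pDC. Without Hspa5, Hsp90b1 and Herpud1, the 3 members of highest mean TPM, the pDC share was 0.691%, against 0.895% in SiglecH+Ly6C- pre-DC and 0.926% in pre-pro-B cells. Cells with more genes had higher scores within every gate tested, with Spearman correlations across cells of 0.37 in SiglecH+Ly6C- pre-DC to 0.81 in LMPP. In cells of 3000 to 6000 genes only, the medians were 1.36% in GMP (29 cells), 1.25% in cMoP (18 cells), 1.24% in SiglecH+Ly6C- pre-DC (60 cells) and 1.09% in pDC (26 cells).

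**Figure D1:**
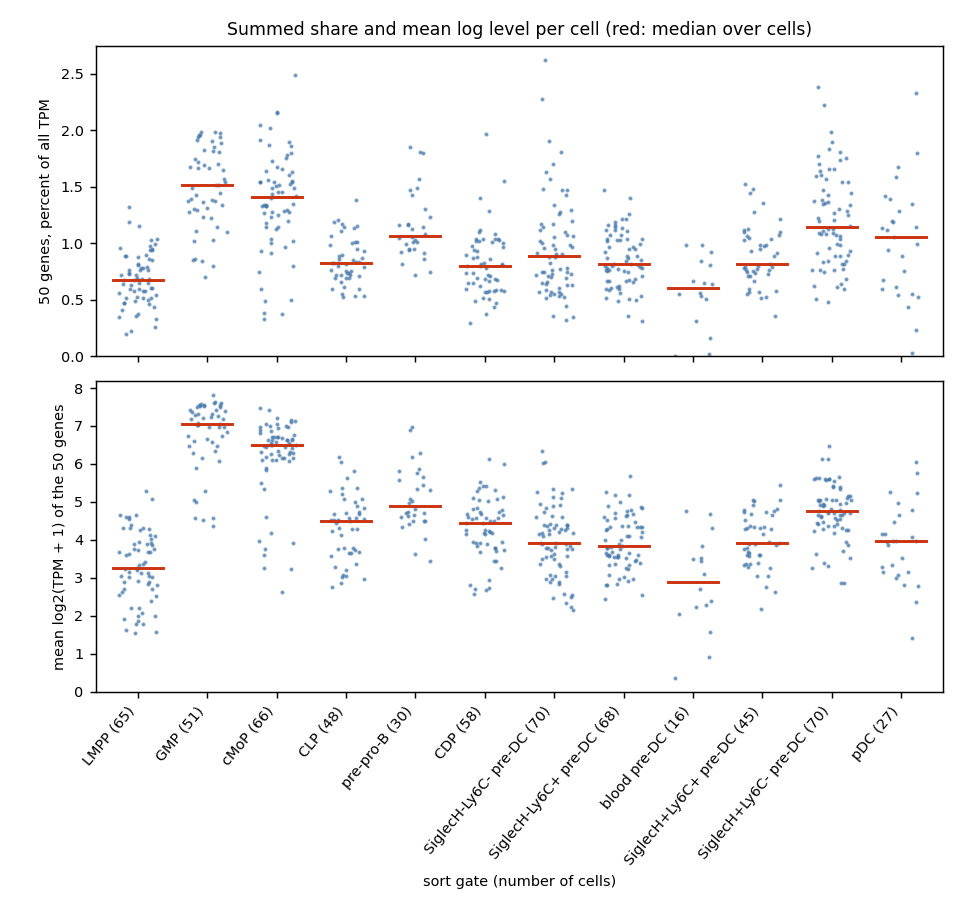
Summed share of TPM (upper panel, percent of all TPM) and mean log2(TPM + 1) of the 50 genes (lower panel) in each cell, by gate; each point is a cell and red bars are medians. GMP and cMoP have the highest medians in both panels, and pDC reach the share of SiglecH+Ly6C- pre-DC at a lower mean log level.

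Single members followed the set. GMP had the highest mean level for 30 of the 50 genes and cMoP for 16. The 4 exceptions were Srp14 and Dad1, highest in pre-pro-B cells, Dnajb9, highest in CLP, and Herpud1, highest in SiglecH+Ly6C- pre-DC. No gene was highest in pDC, where 3 had their lowest level (Ssr3, Sec11a and Derl2). Blood pre-DC were lowest for 25 genes and LMPP for 12. Neighbouring gates in these orders mostly differ by less than the SD over cells.

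**Figure D2:**
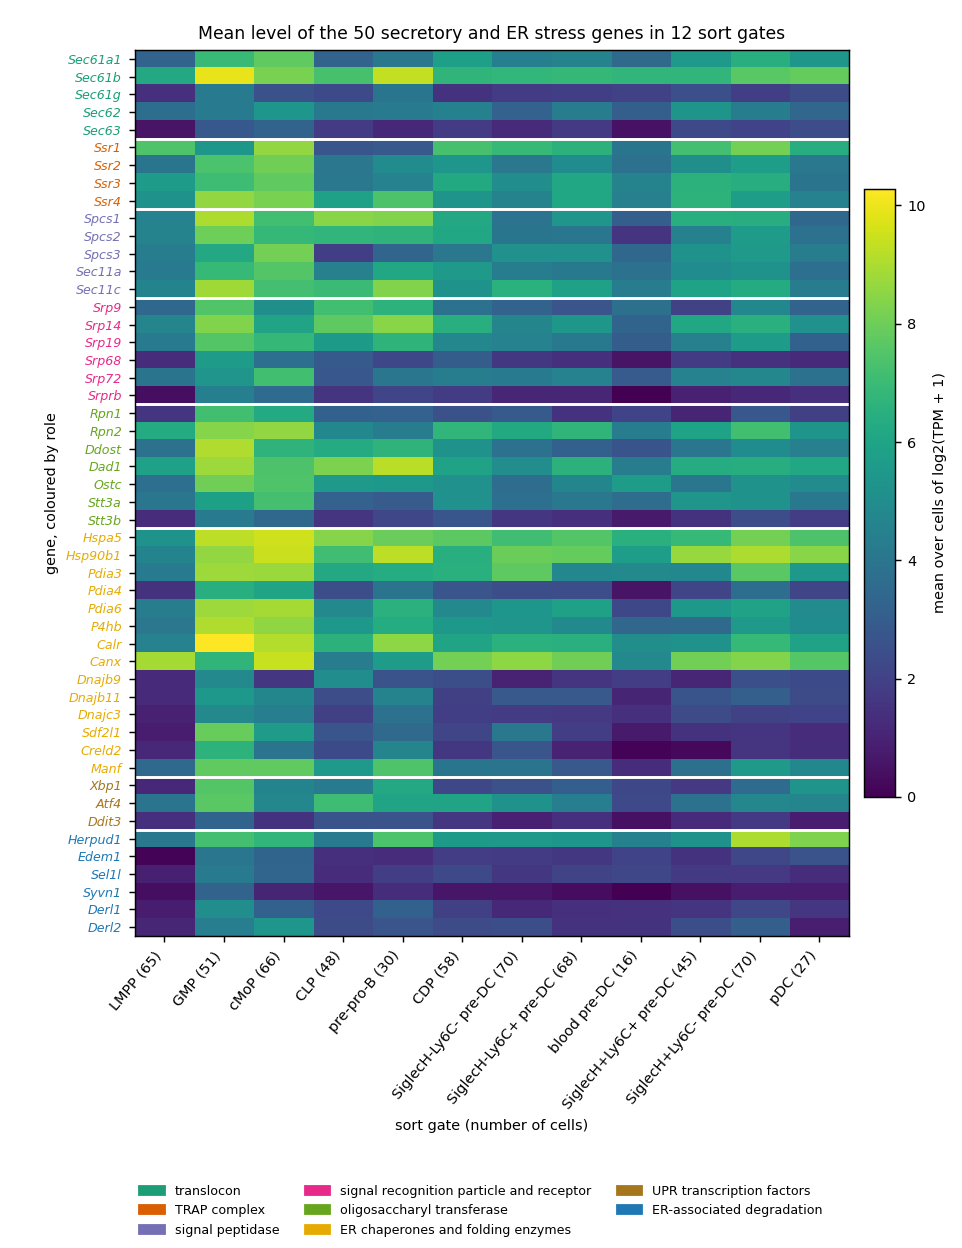
Mean over cells of log2(TPM + 1) for each of the 50 genes (rows, coloured by role) in each gate (columns, number of cells in brackets). GMP and cMoP are bright for nearly all rows, and Herpud1 stands out in the SiglecH+Ly6C- pre-DC and pDC columns.

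Herpud1 (chr8:94386438-94395377, plus strand), an ER membrane protein that brings substrates to the degradation complex and is a classical target of the unfolded protein response, was the 1 member with its highest mean in a dendritic gate. In SiglecH+Ly6C- pre-DC it ranged from 1.16 to 6049 TPM with a median of 1169, and in pDC from 0 to 6627 TPM with a median of 827. Medians elsewhere were 313.3 TPM in pre-pro-B cells, 231 in GMP, 171.5 in cMoP, 65.5, 63.8 and 62.1 in the SiglecH-Ly6C-, SiglecH-Ly6C+ and SiglecH+Ly6C+ pre-DC, 41.98 in CDP, 13.3 in blood pre-DC, 10.9 in LMPP and 8.09 in CLP. Every gate but the SiglecH+Ly6C- pre-DC held cells at 0, and every gate held cells above 600 TPM, so the gates overlap. They differ in how many cells were high and also in level. GMP, with 84.3% of cells at 100 TPM or more, had a median of only 231 TPM.

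The share of cells with Herpud1 at 100 TPM or more was 77.1% in SiglecH+Ly6C- pre-DC (54 of 70; exact Clopper-Pearson 95% interval 65.6% to 86.3%, counting error only) and 74.1% in pDC (20 of 27; 53.7% to 88.9%). It was 44.4% in SiglecH+Ly6C+ pre-DC (20 of 45), 47.1% in SiglecH-Ly6C- pre-DC and 44.8% in CDP (26 of 58; 31.7% to 58.5%). Such cells were as common in some gates outside the dendritic line. The share was 84.3% in GMP (43 of 51), 76.7% in pre-pro-B cells (23 of 30) and 68.2% in cMoP (45 of 66). In CLP it was 41.7% and in LMPP 35.4%. The mean was 9.03 ± 2.99 in SiglecH+Ly6C- pre-DC and 8.29 ± 3.82 in pDC, against 5.30 ± 3.78 in SiglecH+Ly6C+ pre-DC and 5.59 ± 3.83 in CDP. The difference held within runs. SiglecH+Ly6C- pre-DC averaged 9.07 in the run they share with SiglecH+Ly6C+ cells (n = 51) and 8.93 in the run they share with SiglecH-Ly6C- cells (n = 19, against 5.53). In the run with CDP the 24 pDC averaged 8.16. Across cells of 1 gate, Herpud1 went little with Ly6d (Spearman -0.17 to 0.28 in the 10 gates with a value) or with genes per cell (-0.20 to 0.44).

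Xbp1 (chr11:5520659-5525893, plus strand), the transcription factor spliced by the sensor IRE1, had its highest dendritic level in pDC. Its median was 50.9 TPM in pDC (0 to 2755), 7.81 in SiglecH+Ly6C- pre-DC, 0.705 in CDP, 1.58 in SiglecH-Ly6C+ cells, and 0 in SiglecH-Ly6C-, SiglecH+Ly6C+ and blood pre-DC and in LMPP. GMP (277.05), pre-pro-B cells (152) and pDC formed the upper end, with cMoP at 40.1 and CLP at 4.63. Xbp1 was at 100 TPM or more in 40.7% of pDC (11 of 27; 22.4% to 61.2%), 21.4% of SiglecH+Ly6C- pre-DC (15 of 70; 12.5% to 32.9%), 12.1% of CDP (7 of 58; 5.0% to 23.3%) and 2.22% of SiglecH+Ly6C+ pre-DC (1 of 45). The share was 88.2% in GMP (45 of 51), 63.3% in pre-pro-B cells (19 of 30) and 30.3% in cMoP (20 of 66). In CLP it was 39.6% (19 of 48), near that of pDC despite the lower median. TPM per gene do not tell spliced from unspliced Xbp1. The other 2 factors were not higher in pDC than in CDP. Atf4, the effector of the sensor PERK, had a mean of 4.66 in pDC against 6.00 in CDP and 7.66 in GMP. Ddit3 (CHOP) was low everywhere, from 0.47 in blood pre-DC to 3.30 in GMP, with 0.77 in pDC. Both, like Xbp1, had their highest mean in GMP.

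Among the chaperones, Hsp90b1 (chr10:86690209-86705509, minus strand) was at 100 TPM or more in 88.9% of pDC, and 91.4% and 93.3% of the SiglecH+ pre-DC without and with Ly6C, against 75.7% and 76.5% of the SiglecH- pre-DC without and with Ly6C, 58.6% of CDP and 33.8% of LMPP. Its medians were 510 TPM in pDC (0 to 1732), 611 in SiglecH+Ly6C- pre-DC (5.40 to 3591), 622 in SiglecH+Ly6C+ cells (2.21 to 1592) and 167.8 in CDP (0 to 1326). The SiglecH- pre-DC, at 457.1 without and 381 with Ly6C, lay between these. GMP (445.4), pre-pro-B cells (694.4) and cMoP (764) had 96.1%, 100% and 98.5% of cells at 100 TPM or more. All 4 marrow pre-DC gates were thus above the CDP in the median of Hsp90b1, whereas that of Herpud1 in SiglecH+Ly6C+ pre-DC stayed near that of CDP. Hspa5 (chr2:34771970-34777547, plus strand), which encodes BiP, showed neither pattern: medians were 940 TPM in GMP, 920 in cMoP, 563 in SiglecH+Ly6C- pre-DC, 489.1 in CDP, 487.6 in CLP and 329 in pDC (0 to 2478), with 66.7% of pDC and 70.7% of CDP at 100 TPM or more.

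**Figure D3:**
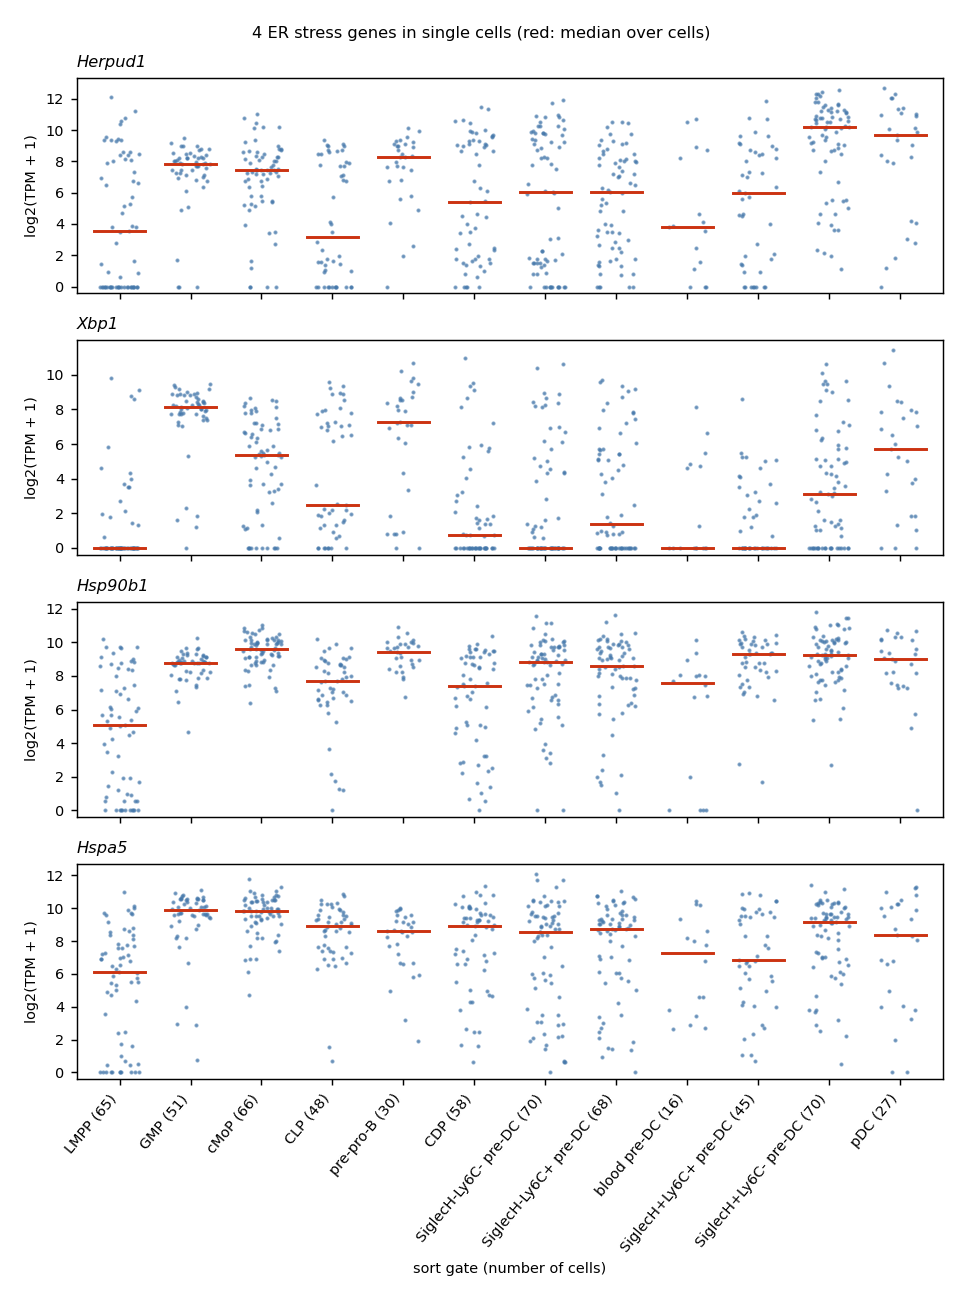
log2(TPM + 1) of Herpud1, Xbp1, Hsp90b1 and Hspa5 in each cell by gate; each point is a cell and red bars are medians. Herpud1 is high in most SiglecH+Ly6C- pre-DC and pDC, Xbp1 has its highest dendritic median in pDC, the median of Hsp90b1 is 510 to 622 TPM in the SiglecH+ gates and 167.8 TPM in CDP, and the medians of Hspa5 are 940 TPM in GMP and 329 TPM in pDC.

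Set against CDP, pDC had 4 members higher and 14 lower by 1 or more. Of all genes kept, 3.62% were higher and 20.6% lower. Those higher were Xbp1 (5.30 against 2.23, a difference of 3.08), Herpud1 (2.70), Hsp90b1 (1.99) and Sec61b, the beta subunit of the translocon (7.83 against 6.74, 1.09). The lowest relative to CDP were the signal peptidase subunits Spcs1 (3.47 against 6.21, -2.74), Spcs2 (-2.23) and Sec11a (-1.77), the TRAP subunit Ssr3 (-2.30), and Srp68 (-1.79) of the signal recognition particle. Spcs1 averaged 2.81 in the 24 pDC of the run shared with CDP and 8.70 in the 3 other pDC. None of the 50 differences exceeded the pooled SD over cells. By role, medians were -1.77 for the signal peptidase and -0.92 for the signal recognition particle, and both were negative under the 4 other scalings tried, the second barely so with the log2 of the mean TPM (-0.0043). Those of the TRAP complex (-1.08) and oligosaccharyl transferase (-0.76) were negative except with the log2 of the mean TPM (0.09 and 0.23). The translocon median (0.66) was positive under every scaling, with 3 of its 5 genes above 0 and 2 below. That of the unfolded protein response factors (-0.84) was negative under every scaling. The medians of the chaperones (-0.22) and degradation genes (-0.10) had a sign that depended on the scale.

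The median of all 50 differences, -0.56 beside -0.30 for all genes kept, turned to 0.10 with the log2 of the mean TPM in place of the mean of logs. That scale gave 7 members higher and 9 lower, beside 15.3% and 32.0% of all genes kept. Size factors gave 7 and 7, beside 5.81% and 13.9%, with a median of -0.13 (and shifted the median of all genes from -0.30 to -0.13). S phase genes (median -2.01, 13 of 15 lower) and ribosomal protein genes (-1.59, 15 of 16 lower) were lower in pDC in the same comparison, and their part in the members' differences was not tested. Within the run that pDC share with CDP, 4 members were higher (3.41% of genes) and 17 lower (21.7%).

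Against SiglecH+Ly6C- pre-DC, the gate nearest to pDC in Herpud1, only Xbp1 was higher in pDC by 1 or more (5.30 against 3.58, 1.72), among 2.12% of all genes kept, and 18 members were lower, among 16.1%. The 5 signal peptidase genes were lower by 1.19 or more, led by Spcs1 (-2.95) and Sec11c (-1.96), although Spcs3 (-1.19) turned to 0.02 with the log2 of the mean TPM. The low Spcs1 was that of the 24 pDC in the run shared with CDP (mean 2.81). In the 3 other pDC it averaged 8.70, above the 6.63 and 5.85 of SiglecH+Ly6C- pre-DC in their 2 runs. The 4 TRAP genes were lower by 1 or more too, led by Ssr3 (-2.45). Srp19 (-2.50), Derl2 (-2.25), a channel component of degradation, Pdia3 (-2.16), a glycoprotein disulfide isomerase, and Rpn2 (-1.85) were also among the lowest. Derl2 reached 100 TPM in 21.4% of SiglecH+Ly6C- pre-DC and in 0 of 27 pDC, where the highest value was 42.6 TPM. For Pdia3 the shares were 71.4% and 37.04%. Here too none of the 50 differences exceeded the pooled SD over cells. The medians of the TRAP complex (-1.67), signal peptidase (-1.79), signal recognition particle (-1.10), chaperones (-0.76) and degradation genes (-0.49) were negative under every scaling tried. The oligosaccharyl transferase (-0.59) was positive with the log2 of the mean TPM (0.10). The translocon median (0.19) was positive under every scaling, with 3 genes above 0 and 2 below. The median of all 50 was -0.80 (all genes kept -0.27), -0.36 with the log2 of the mean TPM and -0.39 with size factors. Genes kept had medians of -0.34 and -0.11 under these alternatives, in that order. The first left the members near that background, with 4 higher and 11 lower beside 12.4% and 32.0% of genes. Neither of these counts exceeded its background. Size factors gave 13 members lower, beside 9.93%. The 2 gates lie in different runs of library numbers, so run and gate cannot be told apart here. S phase genes were lower in pDC in this pair too (-1.95, 15 of 15 lower by 1 or more), which was not tested as a part of it.

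Within the pre-DC, the SiglecH+Ly6C- gate was compared with the SiglecH-Ly6C- and the SiglecH+Ly6C+ gate, and on the main scale more members were higher in it than lower in both pairs. Compared with SiglecH-Ly6C- pre-DC, 22 of 50 members were higher (9.87% of all genes kept) and 2 lower (2.8%), with a median difference of 0.87 against 0.19 for all genes. In this pair none of the 50 differences exceeded the pooled SD over cells. The largest differences after Herpud1 (3.50) were Spcs1 (6.42 against 3.92, 2.50), Sec61a1 (6.46 against 4.46, 2.0), the channel subunit of the translocon, Srp14 (1.84), Spcs2 (1.70) and Ssr2 (1.65). The 4 TRAP genes were higher by 1 or more (1.12 to 1.65), of which Ssr4 (1.12) turned to -0.07 with the log2 of the mean TPM, as were 4 of 7 oligosaccharyl transferase genes (median 1.16). The 2 lower genes were Sdf2l1 (1.60 against 4.13, -2.53) and Creld2 (1.55 against 2.70, -1.15), both from the group of chaperones and folding enzymes. Of the 14 genes of that group 4 were higher, with Manf at 1.63, and the group median was 0.30.

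The comparison depended on the scale in size. With the log2 of the mean TPM 7 members were higher and 3 lower, where 19.8% of all genes kept were higher and 13.1% lower, so neither count exceeded its background on that scale. The median there was 0.36, and the signal recognition particle turned from 0.83 to -0.04. Sdf2l1 remained lower, at a mean of 31.2 against 195 TPM and 4.29% against 27.1% of cells at 100 TPM or more. Within the shared run (19 against 70 cells) 24 members were higher (12.9% of genes) and 1 lower (3.56%), with a median of 0.95. SiglecH+Ly6C- pre-DC also had more genes per cell (median 4982.5 against 4177) and higher S phase genes (median 1.26), while in cells of 3000 to 6000 genes the median was 0.71 with 19 members higher (8.44% of genes); the part of S phase was not tested.

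Compared with SiglecH+Ly6C+ pre-DC, 16 members were higher (6.94% of all genes kept) and 1, Sec62 (-1.03), was lower (2.54%). Chaperones led here: 8 of 14 were higher, with a median of 1.27 that was positive under every scaling, among them Pdia3 (7.64 against 4.79, 2.85), P4hb (1.99), the disulfide isomerase PDI, Manf (1.76), Calr (1.60) and Pdia4 (1.59). Herpud1 (3.73), Srp9 (2.78), Xbp1 (1.87) and Rpn1 (1.73) were also higher. Herpud1 and Pdia3 were the only 2 of the 50 differences in this pair that exceeded the pooled SD over cells. The translocon (-0.20) and TRAP complex (0.20) had medians near 0, with a sign that depended on the scale. The median of all 50 was 0.63 (all genes 0.13), 0.40 with the log2 of the mean TPM, and 0.53 in the shared run of 51 and 45 cells, where 16 members were higher (7.76% of genes) and 0 lower (3.002%). S phase genes were higher (0.92) and G2/M genes lower (-1.04) in SiglecH+Ly6C- cells, and whether they bear on the members was not tested.

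**Figure D4:**
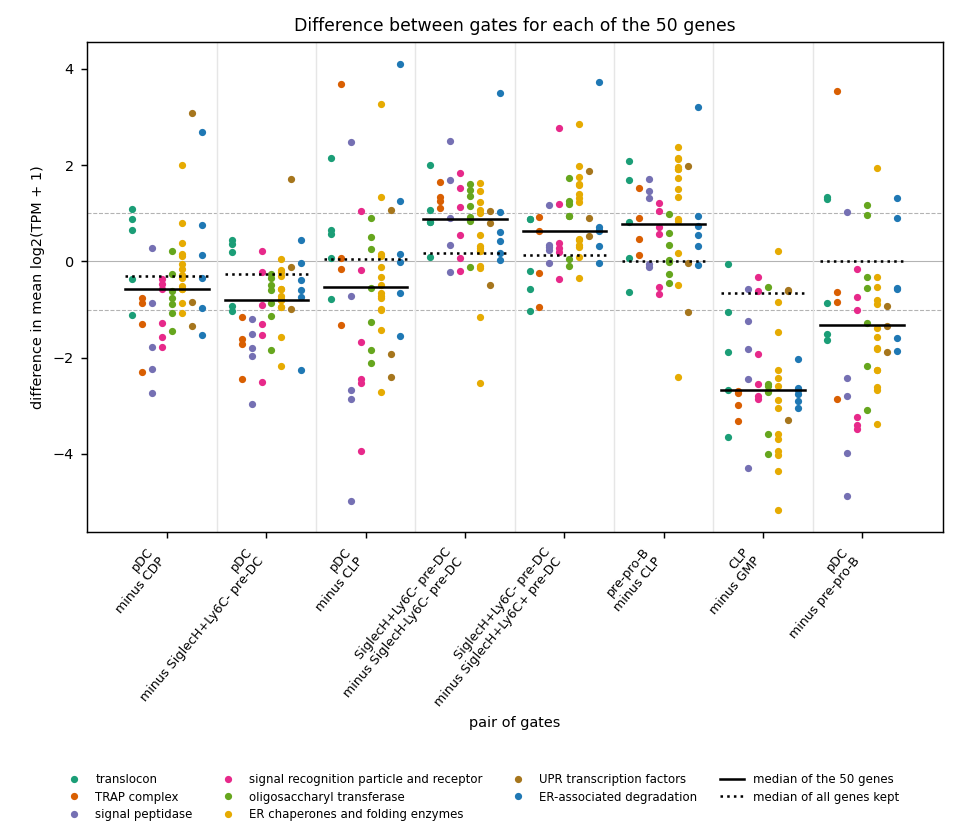
Difference in mean log2(TPM + 1) for each of the 50 genes in 8 pairs of gates, coloured by role; solid bars are medians of the 50 genes, dotted bars medians of all 12660 genes kept, and dashed lines mark a difference of 1. SiglecH+Ly6C- pre-DC lie mostly above the 2 pre-DC gates compared with them, and pDC mostly below SiglecH+Ly6C- pre-DC except for Xbp1; with the log2 of the mean TPM the medians of pDC minus CDP and pDC minus CLP turn positive.

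On the lymphoid side, the gate labelled pre-pro-B had 19 members higher than CLP (8.52% of all genes kept) and 2 lower (5.56%), within 1 run and at nearly equal numbers of genes (medians 3315.5 and 3280). In cells of 3000 to 6000 genes 15 members were higher (6.76%) and the median difference of the 50, 0.78 in all cells, was 0.37. Chaperones made up 9 of the 19, with a group median of 1.61 that was positive under every scaling tried: Creld2 (4.69 against 2.31, 2.39), Dnajb11 (2.14), Hsp90b1 (9.26 against 7.13, 2.13), Calr (1.95), Manf (1.92), Dnajc3 (1.91) and Pdia6 (1.73) led. Herpud1 (7.38 against 4.18, 3.20), Sec61b (2.08) and Xbp1 (1.98) were higher too. The 7 oligosaccharyl transferase genes had a median of 0.03, with 0 higher and 0 lower. The 2 lower genes were Dnajb9 (2.63 against 5.04, -2.41), a BiP co-chaperone, and Atf4 (-1.06). Only Hsp90b1 exceeded the pooled SD over cells. The median of all 50 was 0.78 against 0.00 for all genes kept, and 0.43 on the log2 of the mean TPM, with 11 members higher beside 14.1% of genes. G2/M genes were higher in pre-pro-B cells (median 2.94, 17 of 17 by 1 or more) and immediate-early genes lower (-3.34, 13 of 14), and their part in the members' differences was not tested.

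The widest gap in the set lay between CLP and GMP, also within 1 run. Of 50 members 41 were lower in CLP (40.4% of all genes kept) and 0 higher (1.77%), and 27 of the differences exceeded the pooled SD over cells. Sdf2l1 (2.72 against 7.88, -5.17), Creld2 (-4.35), Spcs3 (-4.30), Pdia4 (-4.02), Rpn1 (-4.00), Pdia6 (-3.94) and Calr (6.60 against 10.28, -3.68) were the lowest relative to GMP. Dnajb9 alone had a difference above 0 (0.22), and Sec62 (-0.05), Srp9 (-0.32), Dad1 (-0.53), Spcs1 (-0.57) and Atf4 (-0.59) were close, of which all but Spcs1 were above 0 with the log2 of the mean TPM (0.17 to 0.52). The median of the unfolded protein response factors (-0.62) turned to 0.52 with the log2 of the mean TPM, while the other 7 groups were negative under every scaling. All 50 had a median of -2.66 (all genes kept -0.65), and -0.85 with 21 members lower (17.9% of genes) on the log2 of the mean TPM. Cells with 3000 to 6000 genes gave -1.80 with 36 lower (26.8%) and 1 higher (2.43%). GMP had more genes per cell (5792 against 3280), and in CLP the S phase (-2.46) and G2/M lists (-2.80) had lower medians, which was not tested as a part of this difference.

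Between the lymphoid gates and pDC the members divided. Against CLP, 9 were higher in pDC (17.2% of all genes kept) and 17 lower (19.2%). On this scale the count of higher members was close to that background and the count of lower members above it. With the log2 of the mean TPM 14 were higher and 12 lower, beside 33.9% and 29.9%, so neither count exceeded its background there. Herpud1 (4.10), Ssr1 (6.42 against 2.74, 3.68), Canx (7.59 against 4.31, 3.28), the lectin chaperone calnexin, Spcs3 (2.48) and Sec61a1 (2.16) were higher. Spcs1 (3.47 against 8.44, -4.98), Srp9 (-3.93), Spcs2 (-2.87), Dnajb9 (-2.72), Sec11c (-2.66) and Srp14 (-2.52) were lower. By role, the medians of the translocon (0.56) and degradation genes (0.08) were positive under every scaling. Those of the signal peptidase (-2.66), signal recognition particle (-2.05) and unfolded protein response factors (-1.91) were negative under every scaling. The TRAP complex, oligosaccharyl transferase and chaperones had a sign that depended on the scale. For all 50 the median, -0.52, was 0.087 with the log2 of the mean TPM and 0.11 with size factors, and without the 3 pDC of the second run 6 members were higher and 18 lower. Size factors split the members 13 higher to 14 lower, beside 20.9% and 14.9% of genes.

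Against the gate labelled pre-pro-B, 7 members were higher in pDC (15.3% of all genes kept) and 27 lower (20%). Ssr1 (3.55), Canx (1.94), Sec61a1 (1.34), Edem1 (1.32) and Sec63 (1.30) were higher, and Spcs1 (-4.87), Sec11c (-3.99), Srp19 (-3.48), Srp9 (-3.40) and Creld2 (-3.37) lower. The medians of the signal peptidase (-2.81), the signal recognition particle (-2.12) and the chaperones (-1.68) were negative under every scaling tried. All 50 had a median of -1.32 (all genes kept 0.01), and -0.24 on the log2 of the mean TPM. On that scale 8 members were higher and 13 lower, beside 34.4% and 27.3% of all genes kept, so the lower count was at its background and the higher one below it. Xbp1 (-0.92) and Herpud1 (0.90) differed by less than 1. G2/M genes (median -3.48, 17 of 17 lower by 1 or more) and S phase genes (-1.91, 14 of 15) were lower in pDC too, and the median mitochondrial share of TPM was 9.38% in pDC and 3.03% in pre-pro-B cells; the part of these in the members' differences was not tested.

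Both comparisons cross runs. Spcs1, the lowest member in both, averaged 2.81 in the 24 pDC of the run shared with CDP and 8.70 in the 3 other pDC. The TRAP subunit Ssr1 was at 100 TPM or more in 1 of 51 GMP, 1 of 48 CLP and 3 of 30 pre-pro-B cells, the 3 gates of 1 run, and in 43.8% to 92.4% of the cells of every other gate. Run and gate cannot be told apart for Ssr1. Transcript length went with the differences in these pairs. Over the 50 genes the Spearman correlation of the difference with the length of the longest annotated transcript was 0.41 for pDC minus pre-pro-B and 0.28 for pDC minus CLP, beside 0.37 and 0.38 over 2634 genes seen in 50% of cells. The 25 longer members had a median difference of -0.63 from pre-pro-B cells and the 25 shorter ones of -1.63. For pDC minus SiglecH+Ly6C- pre-DC, also in different runs, the correlation over the members was -0.05. In the 5 pairs that share a run in full or in part it was -0.04 for pDC minus CDP and lay between -0.24 (pre-pro-B minus CLP) and 0.14 (CLP minus GMP). These are descriptions across genes, which share libraries.

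**Figure D5:**
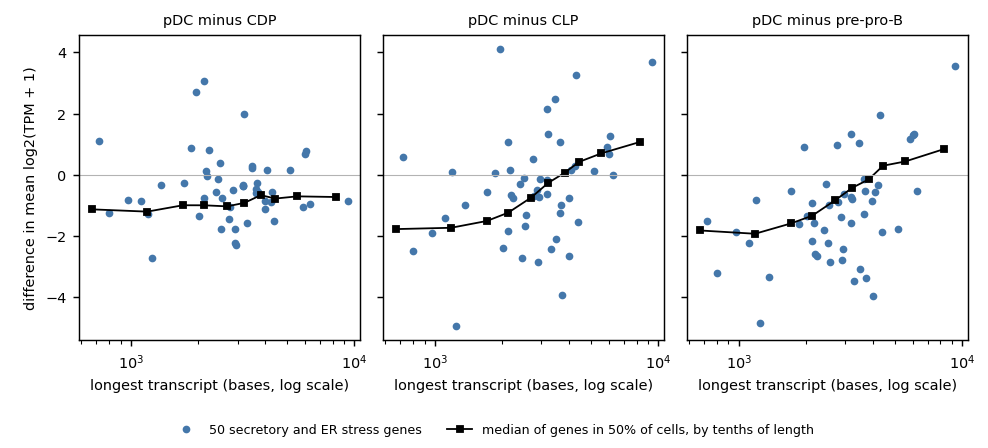
Difference in mean log2(TPM + 1) of each of the 50 genes (vertical axis) against the length of its longest annotated transcript in bases (horizontal axis, log scale) for pDC minus CDP, CLP and pre-pro-B. Spearman correlations over the 50 genes are -0.04, 0.28 and 0.41 in these 3 pairs.

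Most members are well detected, so they were also set beside the 2781 genes that reach 1 TPM in 50% or more of cells (gates weighted equally), 37 of them members. In pDC minus CDP 4 of the 37 (10.8%) were higher, beside 5.32% of the 2781, and 12 (32.4%) lower, beside 46.8%. The share lower was below that background, and the median was -0.57 beside -0.91 for the 2781. In pDC minus SiglecH+Ly6C- pre-DC 1 (2.70%) was higher, beside 2.48% of the 2781, and 17 (45.9%) lower, beside 42.1%. The median was -0.95 beside -0.84 for the 2781, and the share lower was near that background. In pDC minus CLP 8 of the 37 (21.6%) were higher, beside 28.8% of the 2781, and 13 (35.1%) lower, beside 39.6%. Neither share of members exceeded its background there. In pDC minus pre-pro-B 5 (13.5%) were higher, beside 25.6% of the 2781, and 21 (56.8%) lower, beside 41.4%. SiglecH+Ly6C- pre-DC had 20 (54.1%) higher than SiglecH-Ly6C- cells, beside 23.5% of the 2781, and 1 (2.70%) lower, beside 5.54%. They had 14 (37.8%) higher than SiglecH+Ly6C+ cells, beside 15.9%, and 1 (2.70%) lower, beside 6.15%. Pre-pro-B cells had 17 (45.9%) higher than CLP, beside 16.9% of the 2781, and 1 (2.70%) lower, beside 10.4%. CLP had 0 higher than GMP, beside 3.34%, and 30 (81.1%) lower, beside 54.4%.

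Further genes of the pathway, taken from 6 lists outside the 50, were counted in the same way. Between SiglecH+Ly6C- and SiglecH+Ly6C+ pre-DC, 10 of 28 ER to Golgi transport genes were higher (6.94% of all genes kept) and 1 lower (2.54%), and Kdelr2, which returns ER proteins from the Golgi, differed by 3.10. Against SiglecH-Ly6C- pre-DC, 7 of 28 were higher (9.87% of all genes kept), as were 7 of 16 other translocation and glycosylation genes, with 0 lower in both lists (2.8%). Between pDC and CDP, 10 of these 28 transport genes were lower in pDC (20.6% of all genes kept) and 0 higher (3.62%). Genes downstream of ATF4 and CHOP gave 0 of 16 higher and 4 lower in pDC than in CDP, with Phgdh at -2.72, and other folding and lectin genes 1 of 22 higher (Txndc5, 1.35) and 3 lower. Beside 20.6% of all genes kept, the first of these lower counts was near that background and the second below it. Between pre-pro-B cells and CLP, 7 of 22 folding and lectin genes were higher (8.52% of all genes kept), with Fkbp2 at 3.34. All 6 lists had more genes lower than higher in CLP than in GMP, from 8 of 16 genes downstream of ATF4 and CHOP to 21 of 22 folding and lectin genes. Of all genes kept, 40.4% were lower in that pair.

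Within gates, cells with a higher mean level of the 50 genes also had more S phase transcripts (Spearman 0.20 to 0.71 in 11 gates) and more cytosolic heat shock transcripts (0.31 to 0.61). The relation to the mean of the pDC markers was weaker, from -0.03 to 0.36. Cells of a gate count as 1 sample and differ in genes per cell, and no p is given.

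For 6 members a near-identical copy exists in the annotation (95% identity or more over 200 bases or more), and 2 of these are uncertain in level. Sec61g averaged 22.9 TPM over all cells while Gm10177, identical to it over 420 bases, averaged 1262 TPM. Srp9 averaged 108 TPM and its copy Gm13736, identical over 253 bases, 82.5 TPM. Adding the copies to both genes raised the share of the set to 1.97% in GMP and 1.61% in pre-pro-B cells, and left pDC at 1.13% and SiglecH+Ly6C- pre-DC at 1.23%.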

How the data were processed

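Single cells were captured on a microfluidic chip, and cDNA was made with oligo(dT) priming and prepared with transposon tagging, per the labels' protocols. The deposited table holds TPM by gene symbol for each cell, which the authors made with RSEM 1.2.19 on GRCm38, per the submitters' processing notes. Aligner and annotation: not given in the sources used here. Depth is unknown, since read counts are not part of TPM. Totals per cell lay between 997617 and 1000000, and no 2 cells had identical values.

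A pseudocount of 1 was added before log2, levels were averaged over the cells of a gate, and a difference of 1 or more on that scale was counted, so the change of low genes is understated. Detection was set at 1 TPM. Genes at that level in 20% of the cells of any gate were kept (12660, with all 50 members). Each gate is 1 sample, so no p-value was computed. Clopper-Pearson 95% intervals cover counting error only. Any member may be named. For each main contrast up to 10 members in each direction were, and for pDC minus pre-pro-B up to 5. The members and lists were chosen with earlier results of these data known. Alternatives were other pseudocounts, size factors from medians of ratios, the log2 of mean TPM, subsets of cells, shared runs and a threshold of 2. Sums with near-identical copies and leaving out the 3 pDC of the second run were chosen after seeing the data. No doublet caller was run; the 5% of cells with the most genes per gate were left out as an alternative. Runs were read from library numbers, and what a run stands for is not stated. Scripts ran in Python 3.11.15 with pandas 2.3.3, numpy 2.4.6, matplotlib 3.10.9 and scipy 1.17.1, and were tested on simulated data. Gene positions and transcript lengths (found for 92.4% of genes kept) come from GENCODE M21. Retention signals of the proteins were not analysed here.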

Additional observations from a re-analysis of the deposited data

How the results depend on the processing

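Log2 differences of single members named in a comparison kept their direction and moved by less than 1 SD over cells, with the exceptions given next. With the log2 of the mean TPM Srp19 and Ssr2 in pDC minus CDP turned to 0.37 and 0.21, Spcs3 in pDC minus SiglecH+Ly6C- to 0.024, Ssr4 in SiglecH+Ly6C- minus SiglecH-Ly6C- to -0.065, and Sec62, Srp9, Dad1 and Atf4 in CLP minus GMP to 0.38, 0.25, 0.17 and 0.52, while Creld2 there moved to -1.13. Sec62 also turned to 0.13 with a pseudocount of 10, 0.069 with size factors and 0.034 without cells under 2000 genes. The log2 of the mean TPM also changed the medians of pDC minus CDP (0.10), pDC minus CLP (0.087), CLP minus GMP (-0.85) and pDC minus pre-pro-B (-0.24), and the counts of members higher in pDC minus CDP (7), pDC minus SiglecH+Ly6C- (4), pDC minus CLP (14), SiglecH+Ly6C- minus SiglecH-Ly6C- (7), pre-pro-B minus CLP (11) and CLP minus GMP (1). Size factors gave 7 higher for pDC minus CDP (5.81% of all genes kept) and a median of 0.11 for pDC minus CLP. They moved the median of all genes from 0.05 to 0.18 in pDC minus CLP and from -0.65 to -0.53 in CLP minus GMP. A threshold of 2 left 2, 0, 5, 3, 3, 5 and 1 members higher for pDC minus CDP, pDC minus SiglecH+Ly6C-, pDC minus CLP, SiglecH+Ly6C- minus SiglecH-Ly6C-, SiglecH+Ly6C- minus SiglecH+Ly6C+, pre-pro-B minus CLP and pDC minus pre-pro-B. Shares of all genes at that threshold are not given here, so its counts have no background. A pseudocount of 10 gave 6, 7 and 3 higher for the 2 pre-DC pairs and pDC minus pre-pro-B (2.66%, 1.60% and 4.46% of all genes kept). It gave a median of -1.36 for CLP minus GMP, where a pseudocount of 0.1 gave -3.64 and cells of 3000 to 6000 genes 1 member higher (2.43%). Counts of members lower are given with the share of all genes kept. In pDC minus CDP they moved from 14 to 6 (pseudocount of 10, 7.56%), 9 (log2 of the mean, 32.0%), 7 (size factors, 13.9%) and 3 (threshold of 2). In pDC minus SiglecH+Ly6C- they moved from 18 to 11 (pseudocount of 10, 5.03%), 11 (log2 of the mean, 32.0%) and 5 (threshold of 2). They moved from 17 to 9 (threshold of 2) in pDC minus CLP and from 41 to 21 (log2 of the mean, 17.9%) in CLP minus GMP. In pDC minus pre-pro-B they moved from 27 to 13 (log2 of the mean, 27.3%) and 15 (threshold of 2). Counts of 2 or 1 moved to between 0 and 3. Without mitochondrial and ribosomal protein genes the share in SiglecH+Ly6C+ pre-DC was 1.10%; summed copies gave 1.97% in GMP and 1.61% in pre-pro-B cells. Without the 3 pDC of the second run 6 members were higher in pDC than in CLP (16.6% of all genes kept) and 5 than in pre-pro-B cells (14.9%). Shares of cells with Herpud1 or Xbp1 moved beyond their binomial intervals in several gates when detection was set at 10 TPM. Without the filter on low values 1.67% of genes were higher and 9.48% lower in pDC minus CDP. Beyond what each alternative changes by construction, the cause was not tested. No paired analysis was possible because the replicate numbers only name cells.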
